A study of Mus musculus with 2 samples.

Results

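Cxcl9 and Cxcl10 encode secreted chemokines, and Cxcr3 encodes the receptor through which both attract lymphocytes. These 3 genes were taken by symbol from the 34097 genes listed, and each symbol matched 1 row: Cxcl9 (ENSMUSG00000029417), Cxcl10 (ENSMUSG00000034855) and Cxcr3 (ENSMUSG00000050232). Single-cell RNA was counted on the 10x Genomics platform in 2 mouse tumours labelled as xenografts of LLC, the Lewis lung carcinoma line. The control library is labelled NC and treated as control, and the other, labelled SH, carries a short hairpin RNA against Gfpt2, an enzyme of hexosamine synthesis. Host strain, age, sex, the time of growth and the number of mice pooled are not given in the labels, nor is the hairpin's sequence or the control vector. The stated question is what the knockdown does to the tumour's immune microenvironment and to communication between cells. With 1 library per group no test was possible, and every difference given is between these libraries, control first.

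Interferon gamma, released by activated T and NK cells, induces Cxcl9 and Cxcl10. Cxcl10 also answers to type I interferon and to NF-kB signals, so it is made by many cell types, whereas Cxcl9 is more closely tied to interferon gamma. CXCR3 is a G protein-coupled receptor of activated CD8 T cells, type 1 helper cells and NK cells, and in tumours its ligands from macrophages and dendritic cells are known for drawing these cells in.

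The stretch upstream of each ligand's start is shown because both ligands are known for answering to interferon and NF-kB. All 3 genes matched RefSeq's promoter table, and the sequences are the 250 bases before the start in RefSeq's GRCm38.p6, where both genes lie on the minus strand of chromosome 5 (Cxcl9 at chr5:92328080-92328329, Cxcl10 at chr5:92348890-92349139). Both strands were searched for GAAA followed by any 2 bases and GAAA (the core of the interferon-stimulated response element), GGGANTTCC (an NF-kB site) and TTCNNNGAA (the gamma-activated sequence), and capitals mark every match.
Cxcl9: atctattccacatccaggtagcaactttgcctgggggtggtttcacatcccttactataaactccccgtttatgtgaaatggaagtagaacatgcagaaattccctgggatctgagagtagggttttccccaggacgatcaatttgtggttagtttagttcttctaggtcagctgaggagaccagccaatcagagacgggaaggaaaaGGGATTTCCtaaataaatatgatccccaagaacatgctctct
Cxcl10: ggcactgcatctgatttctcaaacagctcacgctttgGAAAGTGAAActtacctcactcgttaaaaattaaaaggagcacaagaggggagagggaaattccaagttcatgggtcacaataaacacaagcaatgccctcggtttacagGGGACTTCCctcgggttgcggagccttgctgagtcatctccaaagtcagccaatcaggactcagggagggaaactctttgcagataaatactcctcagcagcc
The Cxcl10 window held 1 interferon-stimulated response element core, 213 to 204 bases before the start, and 1 match to GGGANTTCC, 103 to 95 bases before it. NF-kB sites with other letters were not searched for, so their number in these windows is not known. The Cxcl9 window held 1 match to GGGANTTCC, 42 to 34 bases before the start, and neither of the other motifs. No match overlapped another. Of 32851 promoter windows of the same length, 2.98% held the first motif, 1.43% the second and 7.02% the third, and 19 held the first and the second together. The window of Cxcr3, on chromosome X (chrX:101734148-101734397), held none of the 3, which says only that these letters are absent there.

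The control library had 11977 cells and the knockdown library 12853, with medians of 10312 and 7496 unique molecular identifiers (UMIs, counted RNA molecules) per cell. After filters 10662 control and 11450 knockdown cells were kept, and 37 barcodes occurred in both libraries. Gfpt2 was at 1.76 CPM over all control cells and 0.574 CPM over all knockdown cells, where CPM is a gene's UMIs per 1000000 UMIs of the same cells. Cells were gated on raw UMIs: macrophages by C1qa, C1qb and C1qc (at least 10 per 10000 UMIs; 3869 control, 4426 knockdown), T cells by Cd3d, Cd3e and Cd3g (at least 2 UMIs; 665 and 546) and tumour-like cells by no Ptprc (CD45), under 5 Lyz2 per 10000 and at least 5000 UMIs (4959 and 5163). All 8 macrophage markers were above 10 CPM in the macrophage gate, and all 6 T cell markers in the T gate. These lists include the gating genes C1qa, C1qb and C1qc, and Cd3d, Cd3e and Cd3g, which the gates themselves set high. The other genes of the lists, among them Apoe and Trac, were above 10 CPM as well. In the tumour-like gate, which leaves out cells with at least 2 Cd3 UMIs, T cell markers summed to 3.18 and 4.03 CPM. Of the 6 LLC markers only Hmga2 stood out there (220.0 and 218 CPM), and 4 of 6 in the control and 5 of 6 in the knockdown were under 10 CPM. Fibroblast markers summed to 2504 and 2805 CPM in that gate, while Xist, which female cells express, was at 2.61 and 3.41 CPM against 496 and 392 CPM in the macrophage gate. The gate is therefore called tumour-like only.

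The gates were not pure in RNA. In the macrophage gate, Hmga2 was at 32.1 CPM in the control against 88.7 CPM in the knockdown, 5 of 6 LLC markers were under 10 CPM (Krt18 at 0 in the control, Krt8 at 0 in the knockdown), and their sum was 38.0 and 91.4 CPM. Fibroblast markers, which the tumour-like cells carry, summed to 287 and 814 CPM there. Cells of the macrophage gate with at least 2 Hmga2 and Col3a1 UMIs per 10000, called here cells with tumour RNA, were 19.95% in the control and 40.01% in the knockdown. In the T gate they were 28.7% and 26.9%. Ligand values are therefore also given without these cells, a split chosen after the values were seen. How far such RNA shapes the remaining differences was not tested.

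Cxcl9 was held mainly by macrophages and Cxcl10 mainly by tumour-like cells. Of all Cxcl9 UMIs in kept cells, macrophages held 67.6% in the control (95% interval 66.8 to 68.3) and 56.7% in the knockdown (55.9 to 57.6). Tumour-like cells held 28.1% and 36.0% of Cxcl9. For Cxcl10 the order was the other way round: tumour-like cells held 71.0% of the UMIs in the control and 71.7% in the knockdown, and macrophages 20.7% and 19.6%. These shares depend on how many cells of each gate were captured and on their RNA content, so levels in CPM follow, each with an exact Poisson interval at 95% that covers counting error only.

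**Figure D1:**
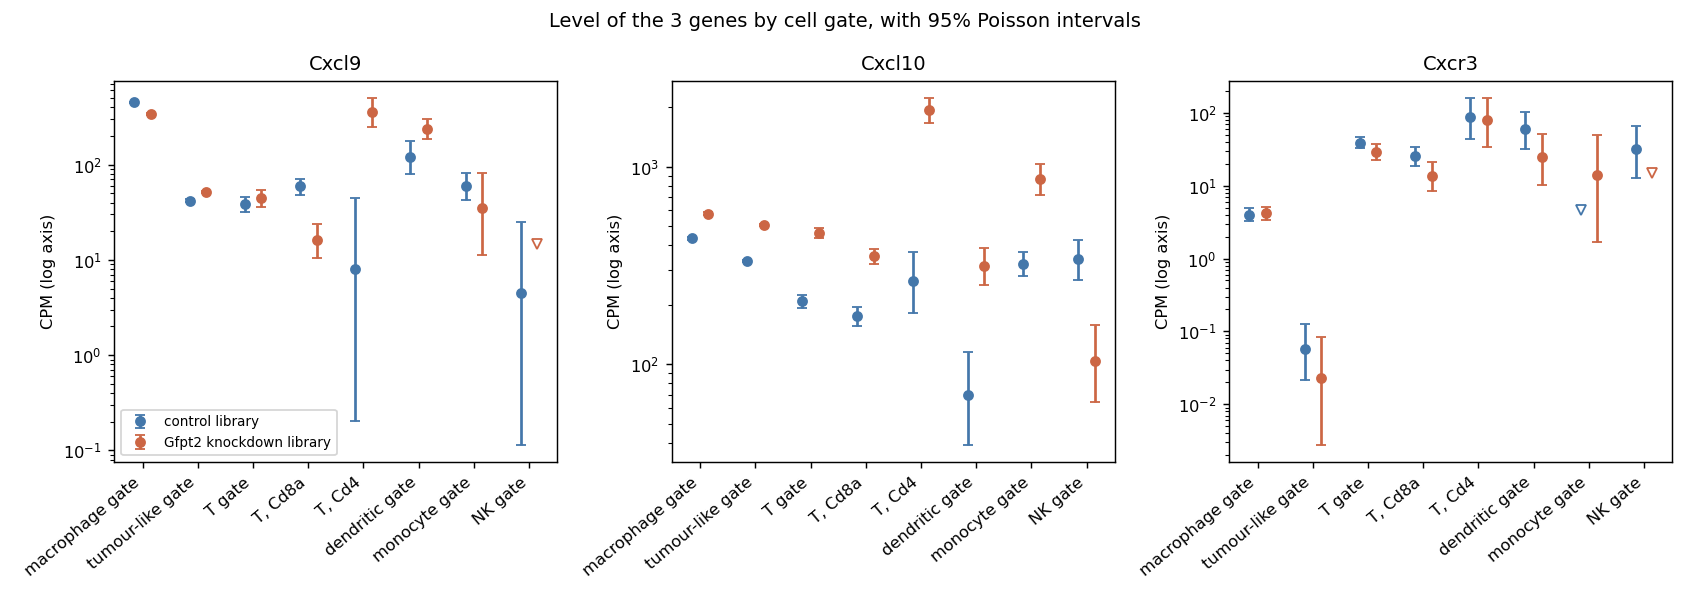
CPM of Cxcl9, Cxcl10 and Cxcr3 (log axes) in 8 cell gates of the control (blue) and Gfpt2 knockdown (orange) libraries; points are summed UMIs of 1 library, bars are 95% Poisson intervals, and open triangles mark 0 UMIs, drawn at the level of 3 UMIs. Cxcl9 was at 450.4 and 339.6 CPM in macrophages against 41.8 and 51.7 CPM in tumour-like cells, and Cxcr3 was between 13.6 and 88.0 CPM in the T gates against 0.0583 and 0.0230 CPM in tumour-like cells.

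Among the gates of the control, Cxcl9 was highest in macrophages, at 450.4 CPM (441.7 to 459). Dendritic cells, gated on Flt3, Xcr1, Clec9a, Ccl22 and Ccr7, came next at 121 CPM (79.1 to 177) from 27 cells, with 19 of their 26 UMIs in 1 cell. Monocytes (60.2 CPM), CD8 T cells (59.0 CPM) and tumour-like cells (41.8 CPM) followed, with 57 of the 109 UMIs of the CD8 T cells in 1 cell, and with the interval of monocytes overlapping those of the other 3 and that of tumour-like cells overlapping the monocytes' alone. In the knockdown the 25 CD4 T cells were at 358 CPM, but 30 of their 36 Cxcl9 UMIs lay in 1 cell. Macrophages there were at 339.6 CPM (332 to 348), dendritic cells at 239 CPM (185 to 304; 22 cells) and tumour-like cells at 51.7 CPM (50.2 to 53.2). The dendritic gate differed between the libraries in other RNA: dendritic markers summed to 2138 CPM in the control against 992 CPM in the knockdown, fibroblast markers to 65.2 and 678 CPM and LLC markers to 18.6 and 168 CPM. Their part in the dendritic values of the 3 genes was not tested. NK cells held 1 Cxcl9 UMI in the control and 0 in the knockdown, where 3 UMIs would be 14.8 CPM.

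Cxcl10 was spread more evenly over the gates. In the control it was at 433 CPM in macrophages (425 to 442), 339.5 CPM in the 34 NK cells (267 to 426), 332 CPM in tumour-like cells (328 to 335) and 321 CPM in monocytes (279 to 368). The intervals of the last 3 overlapped, and T cells (208 CPM) and dendritic cells (69.9 CPM) were lower. In the knockdown CD4 T cells were at 1921 CPM, with 92 and 86 of their 193 UMIs in 1 cell each, and the 49 monocytes at 863 CPM (718 to 1029), with 82 of 124 UMIs in 1 cell. Macrophages followed at 577 CPM (566 to 587) and tumour-like cells at 506 CPM (502 to 511), ahead of T cells at 462 CPM and dendritic cells at 314 CPM. NK cells, at 104 CPM (64.2 to 158) from 36 cells, were lower than in the control, a log2 ratio of -1.71 (-2.73 to -0.75). Fibroblast markers summed to 122 CPM in the control NK gate against 592 CPM in the knockdown one, and their part in the NK values was not tested. In the monocyte gate fibroblast markers summed to 429 and 1273 CPM and monocyte markers to 4849 and 3848 CPM. Their part in the monocyte values was not tested either. Cxcl10 overlaps Art3 on the opposite strand in the GENCODE annotation, and whether the counting used strand is not stated. Art3 had 663 and 708 UMIs in the macrophage gate, where Cxcl10 had 9968 and 12037.

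In macrophages the ligands differed in opposite directions. Cxcl9 was at 450.4 CPM in the control against 339.6 CPM in the knockdown, a log2 ratio of -0.41, with -0.47 to -0.35 as the range that the 2 intervals allow. Cxcl10 was at 433 CPM in the control against 577 CPM in the knockdown, a log2 ratio of 0.41 (0.36 to 0.47). Neither ligand passed 1.5-fold, which 10.4% of 10629 macrophage genes did upward and 1.33% downward. The median macrophage gene was at 0.10, and scaling by edgeR's trimmed mean of M-values moved all log2 ratios in this gate by 0.14, to -0.54 for Cxcl9 and 0.27 for Cxcl10. Of all calls in the gate 88.7% were upward, 74.5% under that scaling and 43.8% without the cells with tumour RNA. The percent of macrophages with a UMI was 37.7% and 35.7% for Cxcl9 and 45.5% and 56.2% for Cxcl10, at medians of 5430 and 3970 UMIs per cell. With each cell thinned to 5000 UMIs and shallower cells left out (1712 control, 2839 knockdown), Cxcl9 was seen in 40.6% and 41.8% of cells and Cxcl10 in 48.6% and 62.8%.

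The size of the Cxcl9 difference depended on which macrophages were counted. Without cells with tumour RNA it was at 481 CPM in the control against 426 CPM in the knockdown, a log2 ratio of -0.18 (-0.25 to -0.11). In those cells thinned to 5000 UMIs it was at 494 and 483 CPM. Cxcl10 in the macrophages without tumour RNA was at 424 and 548 CPM, a log2 ratio of 0.37 (0.30 to 0.44), close to that of the whole gate. Of the kept macrophages, Scrublet's own threshold marked 749 of 4426 in the knockdown and 0 in the control as doublets. That 0 was fixed beforehand: by score, 1148 control cells had been left out and only 1089 lay over the threshold. In the knockdown 1322 had been left out and 2808 lay over it. With that threshold used in place of the score ranking the log2 ratio was -0.16 for Cxcl9. Among cells with at least 50 C1q UMIs per 10000 it was -0.24 for Cxcl9 and 0.44 for Cxcl10.

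Ligand levels also differed between macrophage states. Cells with a UMI of Ifnb1, the type I interferon beta, held Cxcl10 at 954 CPM in the control against 878 CPM in the knockdown. Those without Ifnb1 held it at 392 and 532 CPM. The log2 ratio was -0.12 (-0.25 to 0.01) in the first and 0.44 (0.38 to 0.50) in the second. Cells with Ifnb1, which held more Cxcl10 in both libraries, were 232 of the control and 473 of the knockdown macrophages. Cells with a UMI of Ciita, the interferon gamma-induced master regulator of MHC class II genes, held Cxcl9 at 906 CPM in the control against 576 CPM in the knockdown, and those without it at 334 and 287 CPM. Cxcl10 was alike in the Ciita groups: 447 and 576 CPM with Ciita, 430.1 and 577 CPM without.

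Cells with a UMI of Nos2, the inducible nitric oxide synthase, held Cxcl10 at 724 and 931 CPM against 411 and 537 CPM without it, and Cxcl9 at 327 and 258 CPM against 459.9 and 349 CPM. Cycling cells, with an Mki67 UMI, held Cxcl9 at 364 CPM in the control against 212 CPM in the knockdown, a log2 ratio of -0.78. These groups are cut on single transcripts in cells of unequal depth and were chosen with the values in view.

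**Figure D2:**
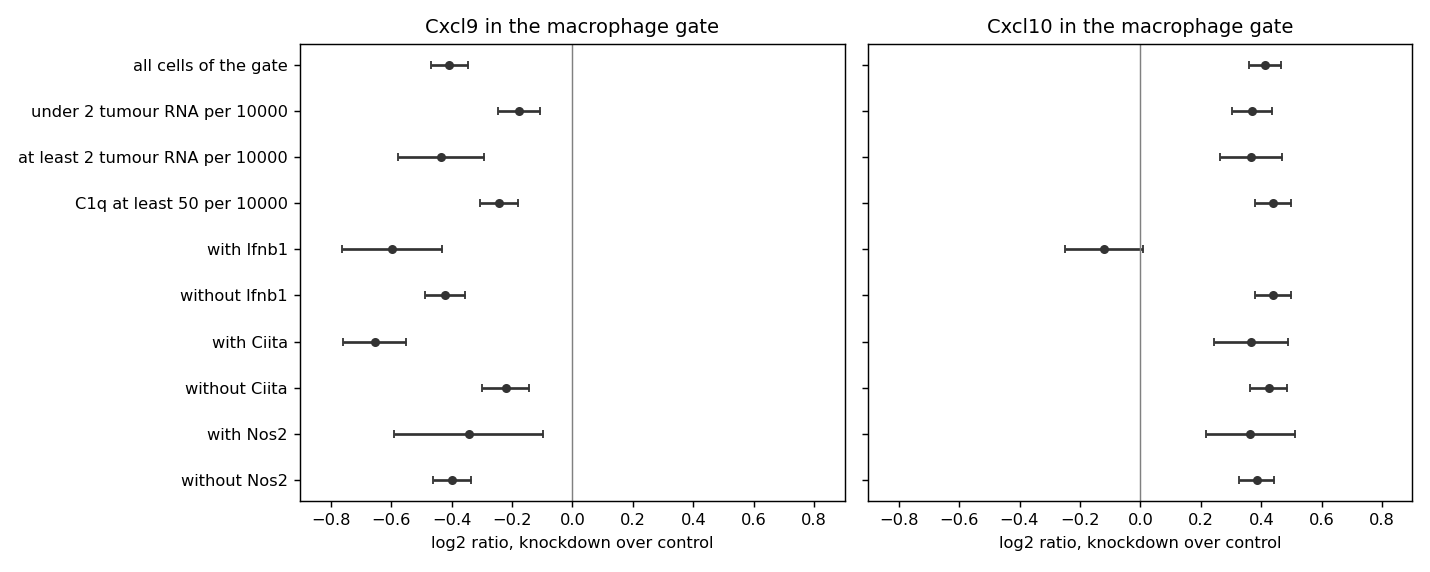
Log2 ratio of Cxcl9 (left) and Cxcl10 (right), knockdown over control, in the whole macrophage gate and in subsets of it; points are 1 ratio of 2 libraries and bars the range that the 95% Poisson intervals allow. Cxcl9 lies below 0 in the 10 rows drawn, from -0.65 with Ciita to -0.18 without tumour RNA, and Cxcl10 above 0 in 9, the exception being cells with Ifnb1 at -0.12; not drawn are cells with Mki67 (Cxcl9 at -0.78) and cells of 10 to 20 C1q UMIs per 10000 (Cxcl9 at 1.04).

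The ligands occurred together in cells. Among thinned control macrophages, 59.7% of those with a Cxcl9 UMI also had Cxcl10, against 41.1% of those without. In the knockdown these shares were 71.7% and 56.3%. Thinned tumour-like cells showed 69.6% against 39.6% in the control and 73.2% against 53.5% in the knockdown. Within a cell both counts also rest on the same capture.

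In tumour-like cells both ligands were higher in the knockdown. Cxcl10 was at 332 CPM in the control against 506 CPM in the knockdown, a log2 ratio of 0.61 (0.58 to 0.64). Cxcl9 was at 41.8 and 51.7 CPM, with 0.31 (0.22 to 0.39) as the log2 ratio. Of the 2 ligands Cxcl10 passed 1.5-fold (0.58 on the log2 scale), as 2.15% of 12344 genes did upward and 0.737% downward, around a median of 0.04. That call was lost under both other scalings (0.55), with cells weighted equally (0.54) and in thinned cells (0.53). A Cxcl10 UMI was found in 65.3% of the control and 75.8% of the knockdown cells, at medians of 18744 and 14709 UMIs per cell, and after thinning to 5000 UMIs in 42.5% and 56.0%. Cxcl9 was found in 19.6% and 21.6%, and after thinning in 9.48% and 12.6%. Its UMIs were concentrated: the top 10% of cells held 89.0% of them in the control and 85.2% in the knockdown.

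The depth of the cells moved with these values. With each library's tumour-like cells ranked by UMIs in 4 equal parts, in the shallowest Cxcl10 was at 435 and 625 CPM, and in the deepest at 251 and 455 CPM. Among cells with 10000 to 20000 UMIs it was at 429 and 515 CPM, a log2 ratio of 0.27 (0.22 to 0.31). In that window Cxcl9 was at 58.9 and 57.4 CPM, a log2 ratio of -0.037 (-0.16 to 0.09). The other 3 windows gave Cxcl9 log2 ratios of 0.20 (-0.045 to 0.46) at 5000 to 10000 UMIs, 0.49 (0.32 to 0.66) at 20000 to 30000 and -0.063 (-0.29 to 0.16) at 30000 or more. Cells thinned to 5000 UMIs gave 0.22 (0.07 to 0.37), so the Cxcl9 difference did not hold in every window. For Cxcl10 the same 3 windows gave 0.61, 0.63 and 0.90, all above 0. Macrophage markers summed to 499 and 612 CPM in the tumour-like gate, with none of the 8 at 0, and their part in the ligand values was not tested.

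Over all depths the Cxcl10 difference was larger in tumour-like cells with less Col3a1, a fibrillar collagen of mesenchymal cells, though not in the deepest cells. These bounds were chosen after the values were seen. Under 5 Col3a1 UMIs per 10000, Cxcl10 was at 173 CPM in the control against 358 CPM in the knockdown, a log2 ratio of 1.05 (0.99 to 1.11). From 5 to 20 it was at 344 and 543 CPM, a log2 ratio of 0.66 (0.61 to 0.70). At 20 or more it was at 615 and 622 CPM, a log2 ratio of 0.02 (-0.03 to 0.06). Levels were thus higher in cells with more Col3a1 in both libraries, with a wider span in the control. Of 10870 genes in the low cells 2.13% passed 1.5-fold upward and 0.929% downward, and in the high cells 1.08% and 0.436% of 10329, with Cxcl10 past it in the low cells and not in the high ones.

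The cells at the low end made up 38.2% of the control and 27.1% of the knockdown tumour-like cells, and those at the high end 29.9% and 34.4%. Leaving out cells with Krt16, a keratin that was at 31.5 CPM over all control cells and 4.87 CPM over all knockdown cells, gave 167 and 339 CPM in the low cells, a log2 ratio of 1.02. At 10000 to 20000 UMIs the low cells were at 196 and 357 CPM, and across the 4 depth windows their log2 ratio lay between 0.71 and 1.52. The high cells had log2 ratios from -0.14 to 0.41 over the same windows, and the cells of 5 to 20 Col3a1 from 0.43 to 0.96. At 30000 UMIs or more the order of the low and middle ranges was turned, with 0.71 (0.60 to 0.82) in the low cells against 0.96 (0.87 to 1.06) in the middle ones. Cxcl9 was also higher in cells with more Col3a1, from 13.4 and 16.6 CPM in the low cells to 104.4 and 104.6 CPM in the high cells. Its log2 ratio was 0.31 (0.06 to 0.55) at the low end and 0.00 (-0.11 to 0.12) at the high end. With the low end drawn at 3 Col3a1 UMIs instead of 5, it was -0.040 for Cxcl9 and 1.17 for Cxcl10. Leaving out cells with Krt16 gave 0.65 (0.37 to 0.93) for Cxcl9 in the low cells.

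**Figure D3:**
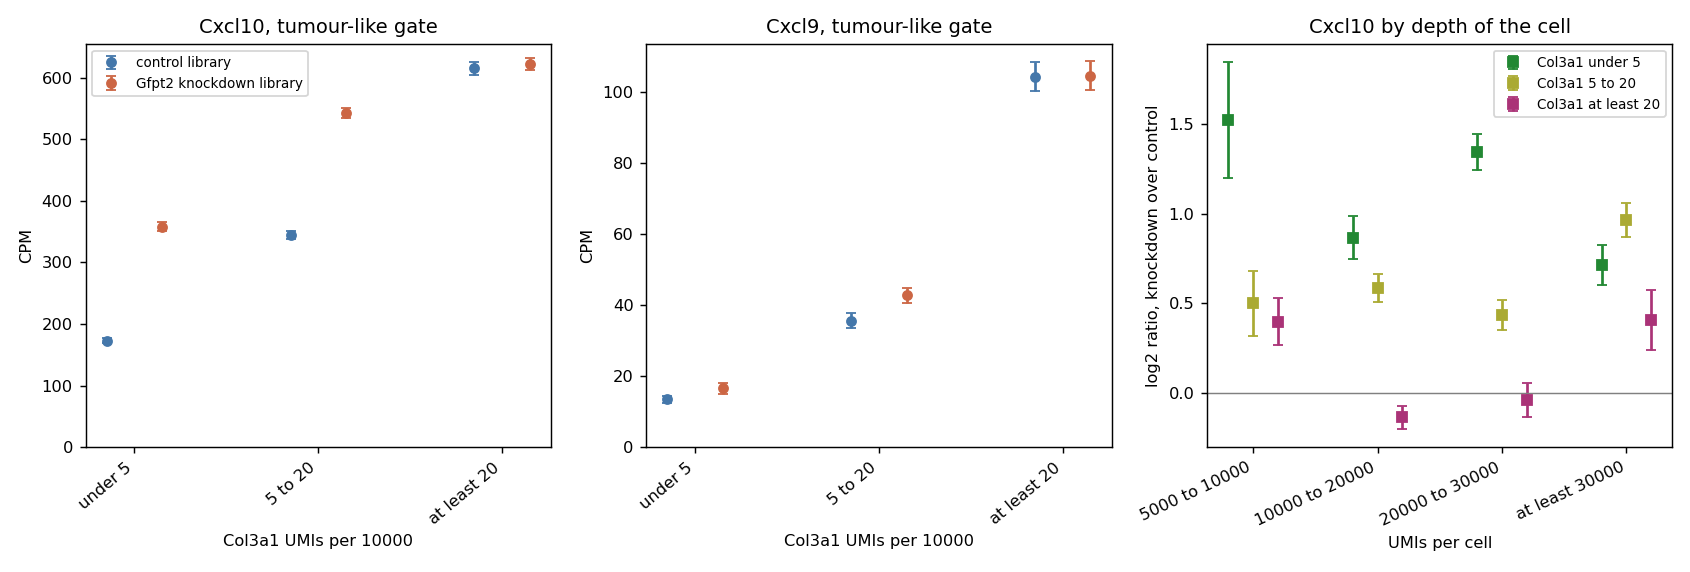
Left and middle, CPM of Cxcl10 and Cxcl9 in tumour-like cells by Col3a1 UMIs per 10000, control (blue) and knockdown (orange), with 95% Poisson intervals. Right, log2 ratio of Cxcl10, knockdown over control, by UMIs per cell within each Col3a1 range, bars as the range the intervals allow: low cells (green) lie between 0.71 and 1.52, cells of 5 to 20 Col3a1 between 0.43 and 0.96, above the low cells at 30000 UMIs or more, and high cells (purple) between -0.14 and 0.41.

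Tumour-like cells that carried Cxcl9 were also rich in Cxcl10, at 745 and 858 CPM against 226 and 402 CPM in cells without a Cxcl9 UMI. The log2 ratio of Cxcl10 was 0.20 with Cxcl9 and 0.83 (0.79 to 0.87) without. Cycling tumour-like cells, with an Mki67 UMI, held Cxcl10 at 282 and 482 CPM, and the others at 373 and 526 CPM. Cxcl9 was at 27.2 and 35.0 CPM in cycling cells and 54.0 and 65.0 CPM in the others.

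Most of the ligand RNA in the T gate lay in the top 10% of its cells. Cxcl10 was at 208 CPM in the control against 462 CPM in the knockdown, a log2 ratio of 1.15 (0.96 to 1.35). It was the one of the 3 genes past 1.5-fold in the T gate, where 1.5% of 5284 genes were past it upward and 1.27% downward (54.1% of calls upward, 38.3% under the trimmed mean scaling). That call was lost under Scrublet's own threshold (0.46; 0.24 to 0.69), with cells weighted equally (0.18) and in thinned cells (0.41; -0.0094 to 0.83). The share of T cells with a Cxcl10 UMI was 30.2% and 30.4%. The top 10% of cells held 70.9% of its UMIs in the control and 86.3% in the knockdown, where the highest cells had 153 and 108 UMIs. In T cells without tumour RNA it was at 263 and 227 CPM, a log2 ratio of -0.21 (-0.53 to 0.10), and in those with tumour RNA at 161 and 701 CPM. Cxcl9 in T cells without tumour RNA had 90 control UMIs, 57 of them in 1 cell, and 20 knockdown UMIs. In the whole T gate macrophage markers summed to 885 and 842 CPM, with none of the 8 at 0, and fibroblast markers to 1153 and 831 CPM.

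Cxcr3 was at its highest levels in T and dendritic cells. T cells held 47.3% of its UMIs in the control and 37.6% in the knockdown, and macrophages, which are many more, 32.5% and 46.8%. The T gate had 134 UMIs in 106 of 665 control T cells and 70 UMIs in 62 of 546 knockdown T cells. Its level there was 39.0 CPM (32.7 to 46.2) in the control against 29.2 CPM (22.8 to 36.9) in the knockdown, a log2 ratio of -0.42 (-1.02 to 0.18), so the intervals overlapped. With cells thinned to 2000 UMIs, 10.7% of control T cells (8.09 to 13.8) and 6.08% of knockdown T cells (3.85 to 9.06) had a Cxcr3 UMI, and 179 and 184 shallower cells were left out. The level in these thinned cells was 64.8 and 31.8 CPM. Another random thinning to the same depth gave 68.9 and 33.1 CPM (67 and 24 UMIs), a log2 ratio of -1.06 (-2.04 to -0.12). Unthinned, the shares were 15.9% and 11.4%, at medians of 2824 and 2626 UMIs per cell. Per 100 UMIs of Trac, the T cell receptor alpha constant gene, the T gate held 11.3 and 6.62 Cxcr3 UMIs. Without T cells with tumour RNA the level was 60.1 and 48.1 CPM, a log2 ratio of -0.32 (-1.01 to 0.35).

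By coreceptor, CD4 T cells had the highest Cxcr3 level of the T subsets, at 88.0 CPM (11 UMIs in 36 cells) and 79.6 CPM (8 UMIs in 25 cells). T cells with neither a Cd4 nor a Cd8a UMI were at 52.4 and 54.9 CPM, and CD8 T cells at 25.4 and 13.6 CPM (47 and 21 UMIs). The intervals of CD4 T cells and cells with neither overlapped, as did those of the libraries within each subset. The CD8 log2 ratio was -0.90 (-2.01 to 0.15). It was -0.30 (-1.55 to 0.92) without CD8 cells with tumour RNA, at 28.0 and 22.8 CPM, and -2.98 (-6.68 to -0.37) in those with it, from 18 and 2 UMIs. Among CD4 T cells, 2 control and 1 knockdown UMI of Cxcr3 lay in cells with Foxp3, the regulatory T cell factor, too few for a comparison.

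Cxcr3 differed between T cell states within a library. Cells without a UMI of Pdcd1, the checkpoint receptor PD-1, were at 52.4 CPM in the control against 35.6 CPM in the knockdown, and cells with one at 12.9 and 18.7 CPM. Cells with Ly6c2, a surface antigen of memory and effector CD8 cells, were at 65.2 and 68.2 CPM, against 25.9 and 19.4 CPM without it. In cells with Gzmb, the cytotoxic granule protease granzyme B, Cxcr3 was at 65.5 CPM in the control (86 UMIs) and 28.4 CPM in the knockdown (31 UMIs). The log2 ratio there was -1.21 (-2.07 to -0.38), with intervals that did not overlap, whereas cells without Gzmb were at 22.6 and 29.9 CPM, a log2 ratio of 0.40 (-0.50 to 1.29). Cells with Ifng, the gene of interferon gamma, were at 39.9 and 17.8 CPM, a log2 ratio of -1.16 (-2.10 to -0.27), and cells without it at 37.9 and 46.9 CPM. Cells without Tcf7, a factor of naive and memory T cells, were at 45.9 and 27.8 CPM (-0.72; -1.38 to -0.07), and cells with it at 18.6 and 37.5 CPM. In 1 more split, cells with Prf1 were at 13.3 and 9.50 CPM, and cells without it at 46.3 and 38.0 CPM. The 5 splits before it and this 1 were looked at without a correction for their number.

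**Figure D4:**
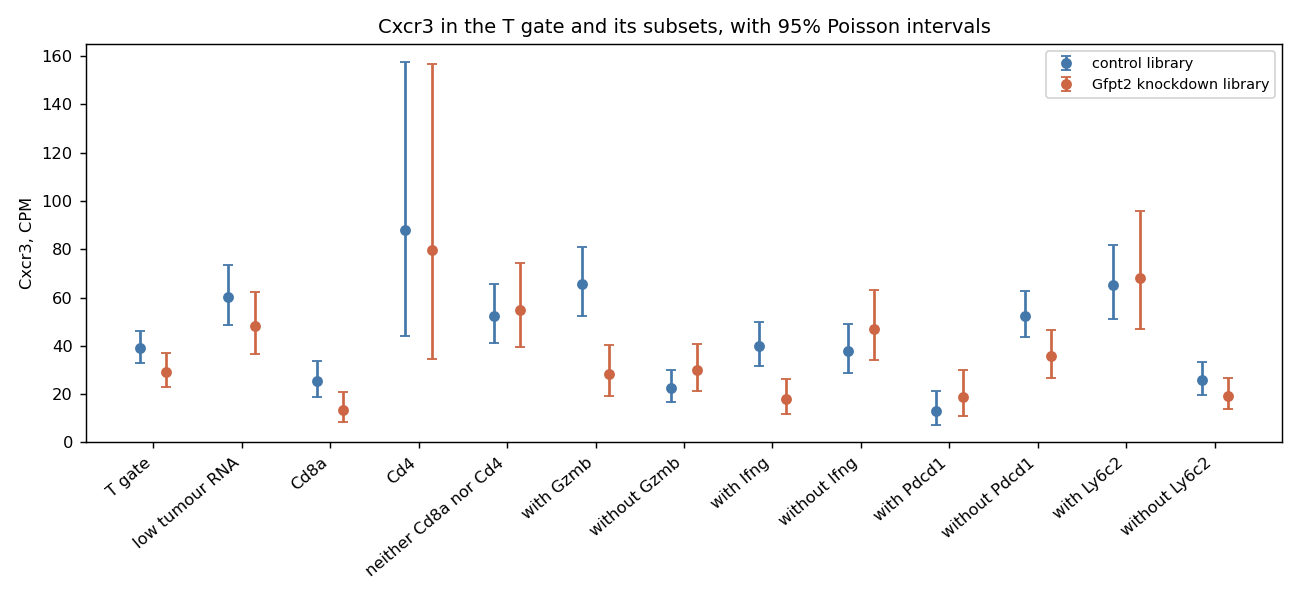
Cxcr3 CPM in the T gate, in its cells without tumour RNA, by coreceptor and by presence of a UMI of 4 genes, control (blue) and knockdown (orange), with 95% Poisson intervals. The intervals of the libraries part in cells with Gzmb (65.5 against 28.4 CPM) and with Ifng (39.9 against 17.8 CPM).

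In macrophages and tumour-like cells Cxcr3 was sparse. Macrophages held 92 and 87 UMIs, or 4.001 and 4.17 CPM, and 2.27% and 1.85% of macrophages had one. The tumour-like gate, which should lack the gene, had 6 and 2 UMIs, in 0.0807% and 0.0387% of cells with greater depth. In the macrophage gate the 6 T cell markers summed to 8.44 and 17.1 CPM after the 121 control and 130 knockdown cells that met 2 gates were left out. Per 100 Trac UMIs this gate held 256 and 164 Cxcr3 UMIs and the tumour-like gate 13.3 and 4.35, beside the 11.3 and 6.62 of the T gate. Leaving out cells of 2 gates takes Trac out of the macrophage gate, so these ratios are given as a description. Dendritic cells had 13 UMIs in 27 control cells and 7 in 22 knockdown cells, at 60.5 and 24.98 CPM, in gates whose dendritic markers summed to 2138 and 992 CPM. All of these lay in cells with Xcr1 or Clec9a, markers of cross-presenting dendritic cells. NK cells had 7 UMIs in 34 control cells and 0 in 36 knockdown cells. The Clopper-Pearson interval for the share of knockdown NK cells with a UMI reached up to 9.74%.

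Near the bounds of the gates, cells with 10 to 20 C1q UMIs per 10000 held Cxcl9 at 42.1 and 86.6 CPM, a log2 ratio of 1.04 (0.39 to 1.72) and opposite in sign to the whole gate, and Cxcl10 at 448 and 638 CPM. Cells just outside, with 5 to 10, held Cxcl9 at 57.7 and 61.3 CPM and Cxcl10 at 366 and 608 CPM. T cells with exactly 2 Cd3 UMIs held Cxcr3 at 14.1 and 16.0 CPM, and cells with 1 Cd3 UMI at 9.09 and 5.94 CPM. Tumour-like cells of 5000 to 6000 UMIs held Cxcl10 at 649 and 659 CPM, and such cells of 4000 to 5000 UMIs at 457 and 711 CPM. These cells are few beside the gates, from 39 T cells with 2 Cd3 UMIs to 399 macrophages.

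Of 5 measured genes of the axis, 1 was past 1.5-fold upward in macrophages (10.4% of all genes) and 2 in tumour-like cells (2.15%). Both calls in tumour-like cells, Cxcl10 and Cxcl11, fall under 1.5-fold with the trimmed mean scaling, which lowers log2 ratios there by 0.064. Cxcl11, which RefSeq lists as a pseudogene in this mouse reference, was at 10.3 and 15.3 CPM in macrophages, a log2 ratio of 0.57 (0.23 to 0.92) that was 0.66 without tumour RNA, where it was the 1 of 4 measured past 1.5-fold (1.37% of all genes), and at 6.75 and 10.4 CPM in tumour-like cells (0.63; 0.43 to 0.83). In tumour-like cells low in Col3a1 it was at 3.65 and 9.86 CPM, a log2 ratio of 1.43, and in the high cells at 11.9 and 8.79 CPM, a log2 ratio of -0.44. Pf4, platelet factor 4, was at 448 and 306 CPM in macrophages, a log2 ratio of -0.55 (-0.61 to -0.49). Ackr3, a scavenging chemokine receptor, was past 1.5-fold upward in macrophages (3.30 and 6.18 CPM), but at 1.95 and 1.35 CPM in those without tumour RNA, and at 25.7 and 20.1 CPM in tumour-like cells. Dpp4, the protease that trims both ligands, had under 100 UMIs in each of these gates and in the T gate, in both libraries.

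Type I interferon targets had log2 ratios above 0 in macrophages and tumour-like cells, with 4 of 10 past 1.5-fold in the first and 2 of 10 in the second. In macrophages 10 of 10 were above 0 and 4 of 10 were past 1.5-fold upward, against 10.4% of all genes, with a median of 0.52 against 0.10 for all genes tested. Those 4 were Ifit2 (189 and 341 CPM; 0.85) and Ifit1 (160.2 and 246 CPM; 0.62), which bind foreign RNA, the ubiquitin-like Isg15 (467 and 742 CPM; 0.67) and the nucleotide kinase Cmpk2 (24.9 and 40.1 CPM; 0.69). Under the trimmed mean scaling, which lowers log2 ratios by 0.14 in macrophages, Ifit2 alone of these 4 stayed past 1.5-fold, and neither call in tumour-like cells did. Without macrophages with tumour RNA 7 of 10 were past 1.5-fold, where 1.37% of 9575 genes were upward and 1.75% downward, and the median was 0.68 against 0.00 for all genes. In tumour-like cells 10 of 10 were above 0, with a median of 0.42, and Isg15 (264 and 412 CPM) and Oasl1 (8.48 and 13.2 CPM) were past 1.5-fold, against 2.15% of all genes. In the cells low in Col3a1 the median was 0.51 and 3 of 10 were past 1.5-fold, against 2.13%. In those high in it the median was 0.06 and 0 of 10 were, near the 1.08% of all genes upward and 0.436% downward. For all genes the median was 0.06 in the low cells and 0.00 in the high ones.

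Interferon gamma targets were at a median of 0.32 in tumour-like cells, against 0.04 for all genes. In the cells low in Col3a1 the median of 9 measured was 0.17, with 1 past 1.5-fold upward (2.13% of all genes) and 1 downward (0.929%). In those high in it the median of 8 measured was 0.15, with 0 past it in either direction (1.08% and 0.436% of all genes). The medians of all genes were 0.06 and 0.00, and the difference between low and high cells was not tested. In macrophages 1 of 9 measured targets was past 1.5-fold, a share near the 10.4% of all genes, the guanylate-binding protein Gbp4 (40.4 and 67.0 CPM; 0.73), and the median was 0.41. Without macrophages with tumour RNA 0 of 9 were, where 1.37% of all genes were upward and 1.75% downward, and the median was 0.30 against 0.00 for all genes. In tumour-like cells 1 of 9 was past it upward, Gbp4 (63.2 and 95.2 CPM; 0.59), where 2.15% of all genes were, and 1 of 9 downward, the tryptophan-degrading enzyme Ido1 (1.46 and 0.896 CPM; -0.70), where 0.737% were. The Gbp4 call in that gate is lost with the trimmed mean scaling, which lowers log2 ratios there by 0.064. Of the interferon gamma pathway itself 0 of 7 measured genes in macrophages or tumour-like cells were past 1.5-fold. Of all genes 10.4% were past it upward and 1.33% downward in macrophages, and 2.15% and 0.737% in tumour-like cells, so 0 of 7 is near these shares. In T cells, its main source, Ifng was at 366 and 519 CPM, a log2 ratio of 0.50 (0.34 to 0.66), and 0.41 without T cells with tumour RNA. Ifnb1 was the 1 of 8 genes of the type I pathway past 1.5-fold in macrophages, a share near the 10.4% of all genes, at 31.2 and 59.9 CPM, a log2 ratio of 0.94 (0.76 to 1.13). Without macrophages with tumour RNA it was again the 1 of 8, at 33.7 and 77.2 CPM (1.19; 0.99 to 1.40), where 1.37% of all genes were past it upward.

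**Figure D5:**
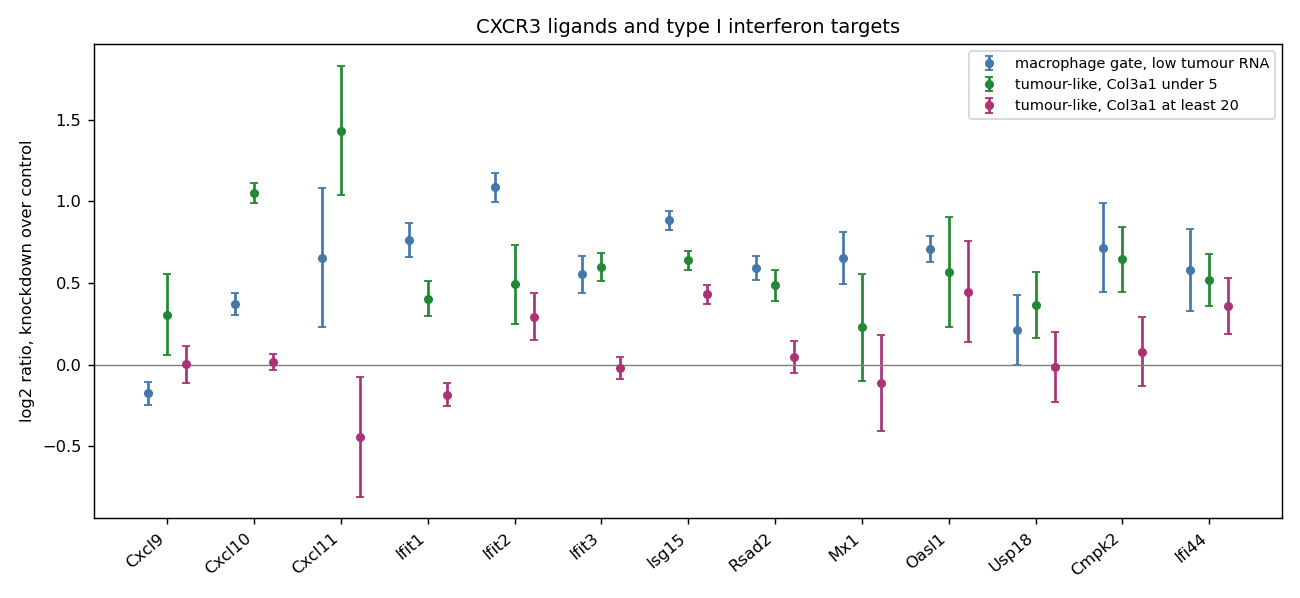
Log2 ratio, knockdown over control, of Cxcl9, Cxcl10, Cxcl11 and the 10 type I interferon targets in macrophages without tumour RNA (blue), tumour-like cells under 5 Col3a1 UMIs per 10000 (green) and at 20 or more (purple); bars are the range the 95% Poisson intervals allow. Cxcl10 was at 0.37, 1.05 and 0.02 and Cxcl9 at -0.18, 0.31 and 0.00, while the targets' medians were 0.68, 0.51 and 0.06.

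In the T gate 3 of 8 measured type I targets were past 1.5-fold upward, Isg15 (349 and 524 CPM), Rsad2 (85.3 and 151 CPM) and Oasl1 (21.6 and 45.1 CPM), against 1.5% of all genes, with a median of 0.42 against 0.03 for all genes. Of these, Isg15 falls under 1.5-fold with the trimmed mean scaling, which lowers log2 ratios in this gate by 0.054. Without T cells with tumour RNA 0 of 6 were past it upward and 1 of 6, Ifit2, downward, and the median was -0.26, against 1.24% of 2824 genes upward and 0.921% downward. Of the regulators and signalling genes of Cxcr3, 0 of 7 measured were past 1.5-fold in T cells, with a median of 0.20 against 0.03 for all genes. That count is near the shares of all genes there, 1.5% upward and 1.27% downward. Tbx21, which encodes T-bet, the factor that drives Cxcr3, was at 129.9 and 172 CPM, a log2 ratio of 0.40 (0.12 to 0.68). That of Cxcr3 was -0.42 (-1.02 to 0.18), a range that leaves its sign open. Among other homing receptors Cxcr6 was at 257 and 327 CPM in T cells. In macrophages 1 of 4 of these receptors was past 1.5-fold downward, where 1.33% of all genes were: Ccr2, the receptor of monocyte entry (36.2 and 23.0 CPM; -0.65). Without the cells with tumour RNA it was not past 1.5-fold (39.9 and 31.0 CPM; -0.36). Of the regulators and signalling genes 1 of 6 was past it upward in macrophages, a count read against 10.4% of all genes: Stat4, a signal transducer downstream of interleukin 12 (log2 ratio 0.83). It was again the 1 of 6 without macrophages with tumour RNA (1.16), where 1.37% of all genes were past it upward. In tumour-like cells 1 of 3 homing receptors was past it upward, S1pr1 (1.16 and 2.41 CPM), where 2.15% of all genes were.

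Other chemokines did not follow 1 pattern. Among tumour-like cells Ccl3 (1.71 and 3.65 CPM; 1.10) and Ccl4 (14.5 and 24.4 CPM; 0.75), which attract myeloid and T cells, were past 1.5-fold upward and Ccl5 (171 and 110.6 CPM; -0.63) downward, with 10 measured and 2.15% and 0.737% of all genes past it. Tnf, an NF-kB inducer, was at 2.11 and 3.87 CPM there, past 1.5-fold upward, 1 of 6 in its list. In macrophages 0 of 10 chemokines were past it (10.4% of all genes upward), and Ccl5 was at 437 and 489.6 CPM. Without macrophages with tumour RNA 1 of 10 was past it upward, Ccl4 (2262 and 3503 CPM; 0.63), where 1.37% of all genes were. In T cells 4 of 6 were past it upward, against 1.5% of all genes: Ccl2 (283 and 500.2 CPM), Ccl3 (65.2 and 187 CPM), Ccl4 (398 and 699 CPM) and Cxcl1 (12.8 and 50.1 CPM). Without T cells with tumour RNA Ccl3 (118 and 293 CPM) and Ccl4 (688 and 1088 CPM) were still past it upward, whereas Ccl2 was past it downward, at 111 and 64.7 CPM, among 4 measured and against 1.24% of all genes upward and 0.921% downward.

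Likeness over 7 gates in each library (14 points of log2(CPM + 1), 11888 genes with at least 10 CPM in 1 point) is a description, since the points share libraries and some rest on few cells. Sbf2 (r = 0.87), Senp2 (0.87), Wdr41 (0.86) and Arf3 (0.86) were among the 5 genes most like Cxcl9, led by ENSMUSG00000120546, a gene with no symbol (0.87). Those most like Cxcl10 were Mon2 (0.88), Capns1 (0.88), Thap11 (0.88), Trpm7 (0.87) and Eif2ak2 (0.87). Those most like Cxcr3 were Fut8 (0.90), Ino80d (0.89), Cd1d1 (0.88), Smndc1 (0.88) and Ptdss1 (0.86). Cxcl9 and Cxcl10 were at r = 0.43 with each other and at 0.17 and 0.07 with Cxcr3.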

How the data were processed

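The authors deposited UMI counts as whole numbers for every gene of each cell, produced with Cell Ranger, version 6.1.0 per the file headers and 3.1.0 per the submitters' processing notes. The build and annotation are not given in the sources used here. Cells with under 200 genes or over 20% mitochondrial UMIs, and the highest Scrublet scores (0.8% per 1000 cells; 1148 control, 1322 knockdown), were left out. Cells in both the macrophage and T gates (121 and 130) went to neither.

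From the counts, CPM, exact Poisson and Clopper-Pearson intervals at 95% and log2 ratios (knockdown over control) were computed with Python 3.11.15, numpy 2.4.6, scanpy 1.11.5 (Scrublet) and scipy 1.17.1, and scaling factors with edgeR 4.0.16. The ratio script was tested on simulated data. A gene was called past 1.5-fold with at least 100 UMIs in 1 library. Over 138972698 control and 118549975 knockdown UMIs, intervals cover counting error only. NK cells needed 2 Ncr1 and Klrb1c UMIs, dendritic cells 3 UMIs of their genes with Ptprc, and monocytes 5 Ly6c2, Plac8 and Ccr2 and 5 Lyz2 per 10000. The genes, lists and subsets were chosen with earlier results of these data known. Named were list genes past 1.5-fold, those described beside them, and the 5 most alike genes. A few list genes are not reported here. Alternatives covered doublets, gates, scaling, cell weights, depth, filters and fold.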

Additional observations from a re-analysis of the deposited data

Results flagged for a closer look

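Cxcl9 stood out because its direction was opposite in the 2 cell types that held most of it: lower in the knockdown library in macrophages (450.4 to 339.6 CPM, log2 ratio -0.41) and higher in tumour-like cells (41.8 to 51.7 CPM, log2 ratio 0.31). The log2 ratios differed by 0.71. With 1 library per group this difference was not tested. The macrophage value was -0.18 without cells with tumour RNA. In those macrophages thinned to 5000 UMIs Cxcl9 was at 494 and 483 CPM, and it was seen in 41.0% and 44.0% of cells. The tumour-like value ranged over 4 depth windows from -0.063 to 0.49, with -0.037 among cells of 10000 to 20000 UMIs and 0.22 in thinned cells.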

How the results depend on the processing

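No paired analysis was possible because each group has 1 library. For the same reason no library could be left out. Cxcl9 in macrophages (-0.41) stayed below 0 under all 11 alternatives and was -0.30 with no doublet removal, -0.16 under Scrublet's own threshold, -0.54 under the trimmed mean of M-values, -0.55 under the median of ratios, -0.34 in a stricter gate, -0.26 in thinned cells, -0.18 without tumour RNA and -0.24 at 50 C1q UMIs. Cxcl10 in macrophages (0.41) stayed above 0 and was 0.54 with no doublet removal, 0.49 with cells weighted equally, 0.27 under both scalings and 0.35 in thinned cells. Cxcl9 in tumour-like cells (0.31) was -0.037 in cells of 10000 to 20000 UMIs, where Cxcl10 was 0.27 (from 0.61). At 5000 to 10000 UMIs they were 0.20 and 0.61, and at 20000 to 30000 UMIs 0.49 and 0.63. At 30000 UMIs or more they were -0.063 and 0.90. Cxcl10 in the whole tumour-like gate was 0.54 with equal weights, 0.55 under both scalings and 0.53 in thinned cells. Cxcr3 in T cells (-0.42) was -1.06 in thinned cells and stayed below 0 (-1.06 to -0.09), as in CD8 T cells (-1.11 to -0.30), while in CD4 T cells it ranged from -1.15 to 0.59. Cxcl10 in T cells (1.15) turned to -0.21 without tumour RNA and, staying above 0, was 0.18 with equal weights, 0.41 in thinned cells, 0.46 under Scrublet's own threshold, 0.63 with no doublet removal and 0.90 with cells of 2 gates kept.

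Genes past 1.5-fold in macrophages (1244) were 2550 at 20 UMIs, 5606 with no filter, 570 with no doublet removal, 378 under Scrublet's own threshold, 633 at 2-fold and 299 without tumour RNA. In tumour-like cells (356) they were 1277, 4391 and, at 2-fold, 108. In T cells (146) they were 980, 3167, 30 at 2-fold, 708 under Scrublet's own threshold and 61 without tumour RNA. The share of calls that was upward went from 88.7% to 74.5% in macrophages and from 54.1% to 38.3% in T cells under the trimmed mean. The cause of these changes was not tested. Cxcr3 had 283 control and 186 knockdown UMIs in all, which limits its precision.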
